A study of Homo sapiens with 6 samples.

Results

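Replacement histone variants are histones whose genes lie outside the histone clusters and whose messengers end in a poly(A) tail, and 8 of their genes were examined in HCT116 cells that overexpressed SETD8. The genes were H1-10, H2AZ1, H2AZ2, H2AX, MACROH2A1, MACROH2A2, H3-3A and H3-3B. They were chosen by name, through their GENCODE 29 identifiers and older names such as H2AFZ and H3F3A. They are 8 of the 58735 genes in the read count table, and all 8 passed the filter on low counts that left 14370 genes to test. HCT116 is an established human colorectal carcinoma line. SETD8, now named KMT5A, is the enzyme that places a single methyl group on lysine 20 of histone H4.

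The study had 3 libraries of cells with an empty vector, labelled wild type, and 3 of cells with the SETD8 overexpression construct. Both populations had been transduced with lentivirus and selected with puromycin as stable clones according to the labels, although the design text speaks of transfection. No source used here says whether a population was 1 clone or several, or whether the replicates were separate cultures. The p-values therefore reflect only how far these libraries differ among themselves, and those differences may be technical. Messenger RNA was poly(A)-selected and sequenced to 17056672 to 20471843 counted reads per library. KMT5A stood at 46.0, 47.3 and 53.9 CPM (normalised read counts, scaled to the size of each library) in vector replicates 1, 2 and 3 and at 65.4, 66.2 and 75.5 CPM in SETD8 replicates 1, 2 and 3, without overlap (log2 fold change 0.49, edgeR adjusted p = 0.0156). The vector libraries were less alike than the SETD8 libraries, and vector replicate 1 lay between the other vector libraries and the SETD8 group on the first principal component (-0.94, against 25.7 and 39.3 for vector replicates 2 and 3 and -23.8 to -16.5 for SETD8). Of 9 markers of the colorectal epithelium 8 had reads and 6 passed the filter, with KRT8, KRT18 and EPCAM the most abundant and CDX1 at 0. Marker sums were 3.50 to 7.20 CPM for fibroblasts, 1.11 to 2.25 for endothelium and 0.16 to 1.00 for immune cells. COL1A2, DCN, KDR, PTPRC and CD3E were at 0 in each library, while COL1A1, VWF and LYZ averaged 4.8, 1.18 and 0.28 CPM.

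Most histone protein is made in S phase from clustered genes whose messengers have no poly(A) tail and end in a short stem-loop. Replacement variants are made throughout the cell cycle, and dedicated chaperones and remodelling complexes place them in chromatin independently of DNA replication. H2A.Z marks promoters and enhancers, H3.3 fills in at active genes and at some repeats, H2AX is phosphorylated around DNA double-strand breaks, macroH2A carries a large extra domain and is associated with silent chromatin, and H1-10 encodes a linker histone that binds DNA between nucleosomes. The proteins of H3-3A and H3-3B are the same, while those of H2AZ1 and H2AZ2 differ at a few residues.

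A pair of sequence features bears on how these genes were counted. The histone stem-loop, searched by its consensus with fully paired arms, was found in 1 of the 8 representative transcripts, that of H2AX, and in 0.186% of 19922 protein-coding transcripts (37, of which 29 are histone genes). It lies in the 3′ untranslated region, 49 bases after the stop codon and 1044 bases before the end of the transcript, at chr11:119094898-119094913 of GRCh38 on the minus strand. The capitals mark the arms that pair and the lower case marks the loop.
H2AX stem-loop: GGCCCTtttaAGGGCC
The H2AX gene is known to give a short messenger that ends at this stem-loop and a longer one with a poly(A) tail. Poly(A) selection retains tailed messengers, and a count per gene does not separate the forms, so the share of the short form in the H2AX values was not measured.

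The other feature is the near identity of H3-3A with its processed pseudogenes, which are copies of its messenger inserted elsewhere in the genome. Reads that lie wholly within identical bases cannot be told apart by their sequence. Below are the first 75 coding bases of H3-3A, of H3-3B and of the pseudogenes H3P6 and H3P16, with capitals for each base that differs from H3-3A. They lie at chr1:226064352-226064426 (plus strand), chr17:75779100-75779174 (minus), chr2:174719908-174719982 (plus) and chr4:139698480-139698554 (minus) of GRCh38.
H3-3A: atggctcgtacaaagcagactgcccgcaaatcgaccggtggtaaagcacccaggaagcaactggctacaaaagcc
H3-3B: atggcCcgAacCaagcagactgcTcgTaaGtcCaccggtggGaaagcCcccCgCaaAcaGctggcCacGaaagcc
H3P6: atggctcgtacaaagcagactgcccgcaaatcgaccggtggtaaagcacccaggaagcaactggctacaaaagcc
H3P16: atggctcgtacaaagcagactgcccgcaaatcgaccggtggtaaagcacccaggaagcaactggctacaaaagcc
H3-3A and H3-3B, with the same protein, differ at 15 of these 75 bases and at 88 of all 411 coding bases (78.6% identity). H3P6 differed from H3-3A at 0 of 411 bases and H3P16 at 3 (99.3%). Of the 50-base windows of the H3-3A transcript, 28.8% also occur in transcripts of other genes. That share was 14.8% for H2AZ2 (with H2AZ2P1), 8.3% for H3-3B (with H3-5), 6.5% for H2AZ1 (with H2AZP3), 0.3% for H2AX and 0.0% for H1-10, MACROH2A1 and MACROH2A2. The share of H2AZ2 is that of its representative transcript of 752 bases, while its longest protein-coding transcript has 3804.

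None of the 8 genes passed the test for a change with SETD8. The edgeR quasi-likelihood test called 0 of 8 higher and 0 of 8 lower at a Benjamini-Hochberg adjusted p under 0.05. Of all tested genes 7.83% were called, 3.08% higher and 4.75% lower. DESeq2 and limma-voom also called 0 of 8, where they called 12.7% of genes with an adjusted p and 7.69% of tested genes. At the same time 2 members, H1-10 and H2AZ1, had an unadjusted p under 0.05, as did 26.0% of all tested genes. Log2 fold changes ran from -0.18 for H3-3B to 0.28 for H1-10, with a median of -2.37e-04 for the members and 4.72e-04 for all tested genes. The standard errors were 0.083 to 0.12, against a median of 0.14 for all tested genes. The widest limits of the 95% intervals were a 0.747-fold level for H3-3B and a 1.48-fold level for H2AZ1. The groups did not overlap for 3 members, with 2 higher and 1 lower in SETD8, where the groups of 30.3% of all tested genes did not overlap (14.4% higher and 15.9% lower). A p above the threshold does not show that these genes kept their level, and the intervals give the range of folds that the libraries allow. Without vector replicate 1 the test called 2 of the 8, H1-10 and H2AZ1, where it called 23.8% of all tested genes.

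**Figure D1:**
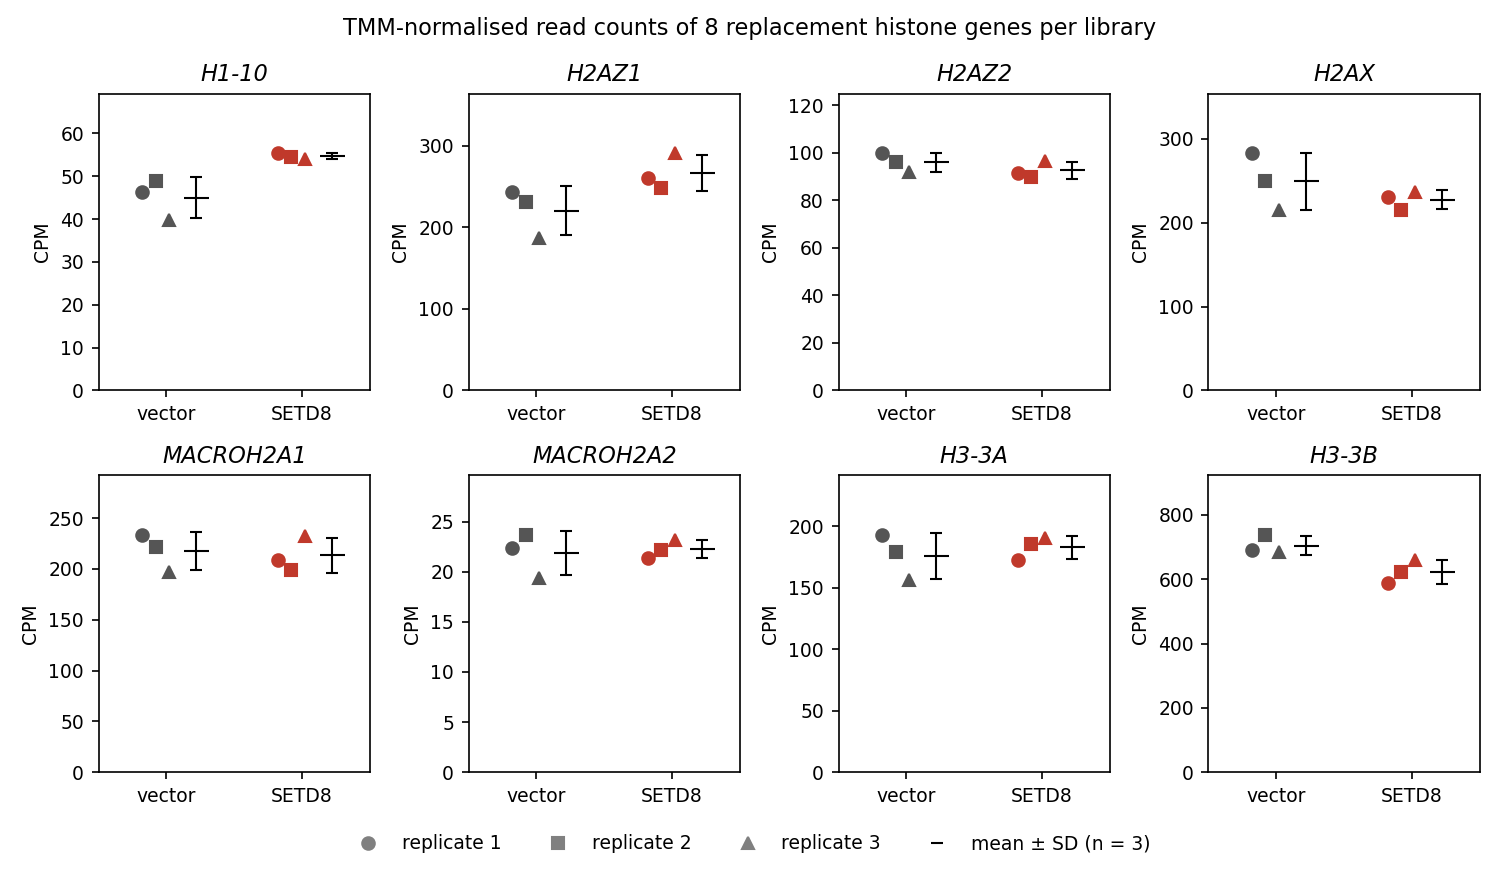
Normalised read counts (CPM, vertical axis from 0) of the 8 genes in each library, by group (horizontal axis), with marker shape for the replicate number and bars for mean ± SD (n = 3). The groups are apart for H1-10, H2AZ1 and H3-3B, and vector replicate 3 (triangle) is the lowest vector library in 8 of 8 panels.

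**Figure D2:**
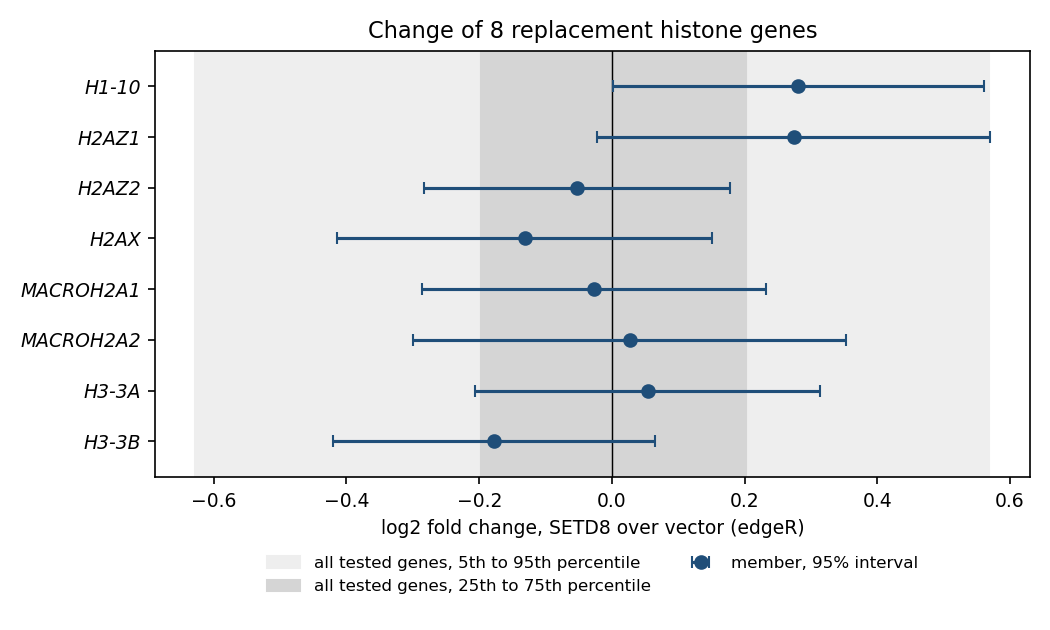
Log2 fold change of each gene, SETD8 over vector (horizontal axis), with its 95% interval. Grey bands span the middle of all 14370 tested genes, and the points run from -0.18 for H3-3B to 0.28 for H1-10.

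The linker histone gene H1-10 had the smallest p of the 8. It is a gene of 1 exon on chromosome 3 (129314771 to 129316277 of GRCh38, minus strand, ENSG00000184897). It stood at 46.3, 49.0 and 39.7 CPM in vector replicates 1, 2 and 3 and at 55.5, 54.6 and 54.0 CPM in SETD8 replicates 1, 2 and 3. Every SETD8 library was above every vector library, and the SETD8 libraries lay within a narrow range. Vector averaged 45.0 ± 4.78 CPM and SETD8 54.7 ± 0.74 CPM (SD, n = 3 each), a 1.21-fold level with a 95% interval of 1.00 to 1.47. On the log2 scale this was 0.28 with an SE of 0.10, and the adjusted p of edgeR was 0.102. The adjusted p was 0.0477 without vector replicate 1. After correction for exonic length the log2 fold change was 0.10 and the adjusted p 0.496. An antisense gene, H1-10-AS1, covers 22.9% of its exonic bases, but had 0 to 4 reads per library beside the 689 to 1055 of H1-10.

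The 3 genes whose profile over the 6 libraries was closest to that of H1-10, among 10564 others with a symbol and a mean of at least 5 CPM, were TAB1, PPIL2 and MED21. TAB1 encodes a binding partner of the kinase TAK1, and MED21 a subunit of the Mediator complex. The root mean square differences of their centred log2 CPM were 0.041, 0.041 and 0.044, where the median over all those genes was 0.22. None of the 3 passed the test either (edgeR adjusted p = 0.116, 0.152 and 0.135). Since they were picked for a profile like that of H1-10 in these libraries, this outcome was largely set by the choice.

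Of the H2A.Z genes, H2AZ1 had the more reads and its groups did not overlap, while those of H2AZ2 did. H2AZ1 lies on chromosome 4 (99948086 to 99950388, minus strand, ENSG00000164032) and H2AZ2 on chromosome 7 (44826791 to 44848083, minus strand, ENSG00000105968). H2AZ1 stood at 244, 231 and 186 CPM in vector replicates 1, 2 and 3 and at 260, 248 and 291 CPM in SETD8 replicates 1, 2 and 3. The lowest SETD8 library was just above the highest vector library, and vector replicate 3 was well below the other vector libraries. The means of H2AZ1 were 220 ± 30.1 and 266 ± 22.4 CPM (SD, n = 3 each), a 1.21-fold level (95% interval 0.985 to 1.48) with edgeR adjusted p = 0.126. H2AZ1 passed when genes with low counts were kept in (edgeR adjusted p = 0.0499) and without vector replicate 1 (0.0178). With length correction its log2 fold change was 0.15, against 0.27 without it.

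H2AZ2 stood at 100.03, 96.3 and 92.0 CPM in vector replicates 1, 2 and 3 and at 91.4, 89.9 and 96.8 CPM in SETD8 replicates 1, 2 and 3. The groups overlapped, and the means of 96.1 ± 4.01 and 92.7 ± 3.63 CPM gave a 0.964-fold level (95% interval 0.822 to 1.13, edgeR adjusted p = 0.724). Summed over both genes, H2A.Z messengers came to 344, 327 and 278 CPM in vector and 352, 338 and 388 CPM in SETD8 replicates 1, 2 and 3, so that SETD8 replicate 2 was below vector replicate 1.

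The balance between H2AZ1 and H2AZ2, which does not depend on how libraries are scaled, differed in each library of one group from each of the other. There were 0.410, 0.417 and 0.494 H2AZ2 reads per H2AZ1 read in vector replicates 1, 2 and 3 and 0.351, 0.363 and 0.332 in SETD8 replicates 1, 2 and 3. H2AZ2 thus made up 30.5% ± 2.19 of the H2A.Z reads in vector and 25.8% ± 0.85 in SETD8 libraries (SD, n = 3 each). How often ratios of other gene pairs separate the groups was not counted, and 30.3% of single tested genes had groups without overlap. The log2 ratio of H2AZ2 to H2AZ1 differed by -0.33 between the groups. A two-sided exact permutation test gave p = 0.1, which is the lowest value 3 libraries against 3 can give, and 0.15 after adjustment over the 3 pairs of paralogs compared. The difference was -0.25 without vector replicate 3, the library with the highest ratio, and -0.20 between the length-corrected log2 fold changes of the genes, a setting added after the data were seen.

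Because this ratio separated the groups, the RefSeq promoters of H2AZ1 and H2AZ2 (300 bases, from 250 before the annotated start to 50 after it, GRCh38.p14) are printed below, from chr4:99950226-99950525 and chr7:44848038-44848337, both on the minus strand. The ratio of H3-3B to H3-3A, given below, also separated the groups, but the promoters of those genes are not printed. The capitals mark CCAAT or its reverse complement ATTGG, and TATAAA or its reverse complement TTTATA.
H2AZ1 promoter: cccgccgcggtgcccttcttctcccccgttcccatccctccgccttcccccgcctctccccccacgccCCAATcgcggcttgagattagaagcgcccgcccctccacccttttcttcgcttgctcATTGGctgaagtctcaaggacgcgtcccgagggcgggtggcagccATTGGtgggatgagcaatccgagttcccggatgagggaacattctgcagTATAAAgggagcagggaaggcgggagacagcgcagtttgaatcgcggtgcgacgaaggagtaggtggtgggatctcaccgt
H2AZ2 promoter: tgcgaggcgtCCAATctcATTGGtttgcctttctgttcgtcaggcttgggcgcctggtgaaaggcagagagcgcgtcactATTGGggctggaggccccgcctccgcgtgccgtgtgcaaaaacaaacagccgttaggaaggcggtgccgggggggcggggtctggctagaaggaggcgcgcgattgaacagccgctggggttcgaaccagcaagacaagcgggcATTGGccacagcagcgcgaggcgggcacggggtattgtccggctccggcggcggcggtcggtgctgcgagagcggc
The H2AZ1 window held 3 CCAAT matches and 1 TATAAA match, and the H2AZ2 window held 4 CCAAT matches and 0 TATAAA matches. All 8 members matched the promoter table, with 12 windows, since some have several annotated starts. CCAAT stood in 8 of these 12 windows (6 of the 8 genes), TATAAA in 4 windows (4 genes) and the GC box GGGCGG or its reverse complement CCGCCC in 8 windows (5 genes). Shares of all 35116 RefSeq promoters with these motifs were 34.6%, 11.5% and 45.0%, and 4 of the 12 windows are of H3-3A alone. The genes with TATAAA were H1-10, H2AX, H2AZ1 and H3-3B, with log2 fold changes of 0.28, -0.13, 0.27 and -0.18. Those of the other members lay between -0.05 for H2AZ2 and 0.05 for H3-3A. A link between motif and change was not tested. These matches are letters in a window and were not tested for binding.

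H2AX, whose protein marks DNA breaks, overlapped between the groups. It is a gene of 1 exon on chromosome 11 (119093854 to 119095467, minus strand, ENSG00000188486). Its levels were 283, 249 and 215 CPM in vector replicates 1, 2 and 3 and 231, 215 and 236 CPM in SETD8 replicates 1, 2 and 3. The vector libraries spanned the whole range of the SETD8 libraries, with a coefficient of variation of 13.8% against 4.83%. The means of 249 ± 34.3 and 227 ± 11.0 CPM (SD, n = 3 each) differed by -0.13 on the log2 scale with an SE of 0.10, a 0.913-fold level (95% interval 0.751 to 1.11, edgeR adjusted p = 0.437). Corrected for exonic length, the log2 fold change was -0.30 and passed the test (edgeR adjusted p = 0.0299), and without vector replicate 1 it was -0.03 (edgeR adjusted p = 0.833).

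The macroH2A genes did not differ beyond the spread of the libraries, and their direction changed with the settings. MACROH2A1 lies on chromosome 5 (135333900 to 135399914, minus strand, ENSG00000113648) and encodes splice forms that a count per gene does not separate. It stood at 234, 221 and 197 CPM in vector replicates 1, 2 and 3 and at 209, 199 and 233 CPM in SETD8 replicates 1, 2 and 3. The ranges were nearly the same, and the level was 0.981-fold (95% interval 0.820 to 1.17, edgeR adjusted p = 0.884). Its log2 fold change of -0.03 became 0.02 with library totals and 0.17 with length correction. That correction used merged exons, 17730 bases for MACROH2A1 against 2789 for its representative transcript. The antisense gene PITX1-AS1 covers 28.0% of its exonic bases and had 4 to 33 reads per library.

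MACROH2A2 was the least abundant of the 8, with 337 to 475 reads per library. It lies on chromosome 10 (70052796 to 70112280, plus strand, ENSG00000099284). Its levels were 22.4, 23.7 and 19.4 CPM in vector replicates 1, 2 and 3 and 21.4, 22.2 and 23.2 CPM in SETD8 replicates 1, 2 and 3. The SETD8 libraries lay inside the vector range, with a 1.02-fold level (95% interval 0.813 to 1.28, edgeR adjusted p = 0.913). The gene AIFM2, on the opposite strand, had 1002 to 1453 reads and shares 11 exonic bases with MACROH2A2. There were 0.0958, 0.107 and 0.0985 MACROH2A2 reads per MACROH2A1 read in vector replicates 1, 2 and 3 and 0.103, 0.112 and 0.0997 in SETD8 replicates 1, 2 and 3. That ratio overlapped between the groups (log2 difference 0.06, two-sided exact permutation p = 0.5, also 0.5 adjusted over the 3 pairs), and between length-corrected log2 fold changes the difference was -0.30.

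H3-3B carried most of the reads for H3.3, and its groups did not overlap, while those of H3-3A did. H3-3B lies on chromosome 17 (75776434 to 75785893, minus strand, ENSG00000132475) and H3-3A on chromosome 1 (226061851 to 226072001, plus strand, ENSG00000163041). H3-3B stood at 691, 739 and 685 CPM in vector replicates 1, 2 and 3 and at 587, 621 and 661 CPM in SETD8 replicates 1, 2 and 3. Every SETD8 library was below every vector library, though the highest was close to the lowest vector library. The means of 705 ± 29.6 and 623 ± 36.6 CPM (SD, n = 3 each) gave a 0.884-fold level (95% interval 0.747 to 1.05, edgeR adjusted p = 0.216). The adjusted p ran from 0.128 to 0.525 when single libraries were left out. UNK, on the opposite strand, shares 214 exonic bases (3.49%) with H3-3B and had 508 to 701 reads per library.

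H3-3A stood at 193, 179 and 156 CPM in vector replicates 1, 2 and 3 and at 172, 186 and 190 CPM in SETD8 replicates 1, 2 and 3. The groups overlapped, with a 1.04-fold level (95% interval 0.867 to 1.24, edgeR adjusted p = 0.751). Its log2 fold change of 0.05 became -0.0068 with length correction.

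Reads per H3-3A read on H3-3B numbered 3.58, 4.13 and 4.39 in vector replicates 1, 2 and 3 and 3.41, 3.34 and 3.47 in SETD8 replicates 1, 2 and 3. The groups did not overlap, and the SETD8 libraries were nearly alike. The share of other gene pairs whose ratio separates the groups was not counted. H3-3B made up 80.0% ± 1.70 of the reads of both genes in vector and 77.3% ± 0.34 in SETD8 libraries (SD, n = 3 each). The log2 ratio differed by -0.24 in the same test (exact permutation p = 0.1, again the lowest possible, and 0.15 after adjustment). It was -0.17 without vector replicate 3 and -0.32 without vector replicate 1, and -0.12 between the length-corrected log2 fold changes. Summed over both genes, H3.3 messengers came to 884, 918 and 841 CPM in vector and 760, 807 and 851 CPM in SETD8 replicates 1, 2 and 3, where the groups overlapped.

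**Figure D3:**
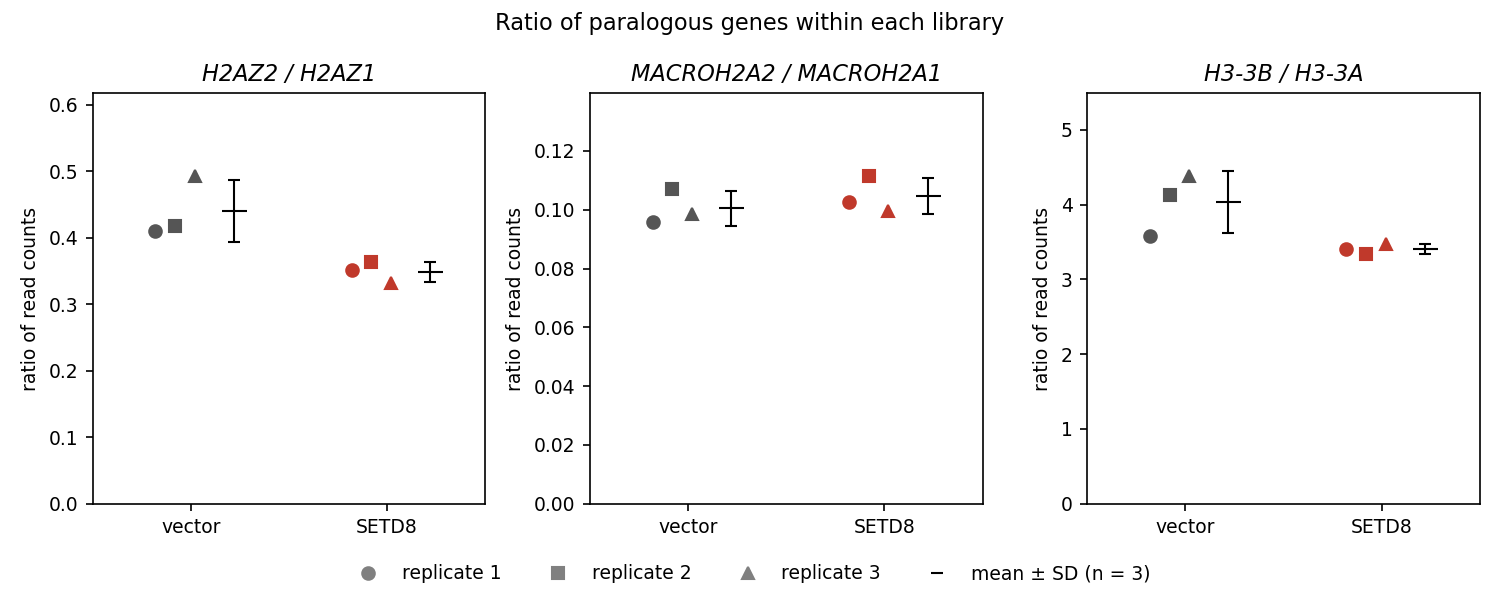
Ratio of the read counts of 3 pairs of paralogs within each library (vertical axes from 0), by group, with marker shape for the replicate number and bars for mean ± SD (n = 3). The groups are apart for H2AZ2 to H2AZ1 and for H3-3B to H3-3A and overlap for MACROH2A2 to MACROH2A1. The share of other gene pairs that are apart was not counted.

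Reads were also counted on pseudogenes of H3-3A. H3P6 had 36.5, 41.9 and 36.9 CPM in vector replicates 1, 2 and 3 and 38.5, 34.8 and 38.5 CPM in SETD8 replicates 1, 2 and 3. H3P16 had 13.1 to 15.4 CPM over the 6 libraries. Neither passed the test (log2 fold change -0.04 and 0.04, edgeR adjusted p = 0.822 and 0.861). The pseudogenes named for H3-3A made up 23.2% ± 1.80 of the reads counted on H3-3A and them together in vector and 22.3% ± 1.32 in SETD8 libraries (SD, n = 3 each). These shares overlapped between the groups (exact permutation p = 0.5). Since H3P6 is identical to the coding bases of H3-3A, how these reads divide between gene and copy is uncertain. Each of the 16 copies whose names tie them to a member was also added to that member, 6 of them to H3-3A. So summed, H3-3A had a log2 fold change of 0.04 (edgeR adjusted p = 0.830) and the log2 ratio of H3-3B to H3-3A differed by -0.22. Of those 16 copies 9 had a read in some library. A further 40 annotated H3 and H2A.Z pseudogenes carry no member's name, and 7 of them had a read. Other than H3P6 and H3P16, each of these 56 had at most 16 reads in a library.

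**Figure D4:**
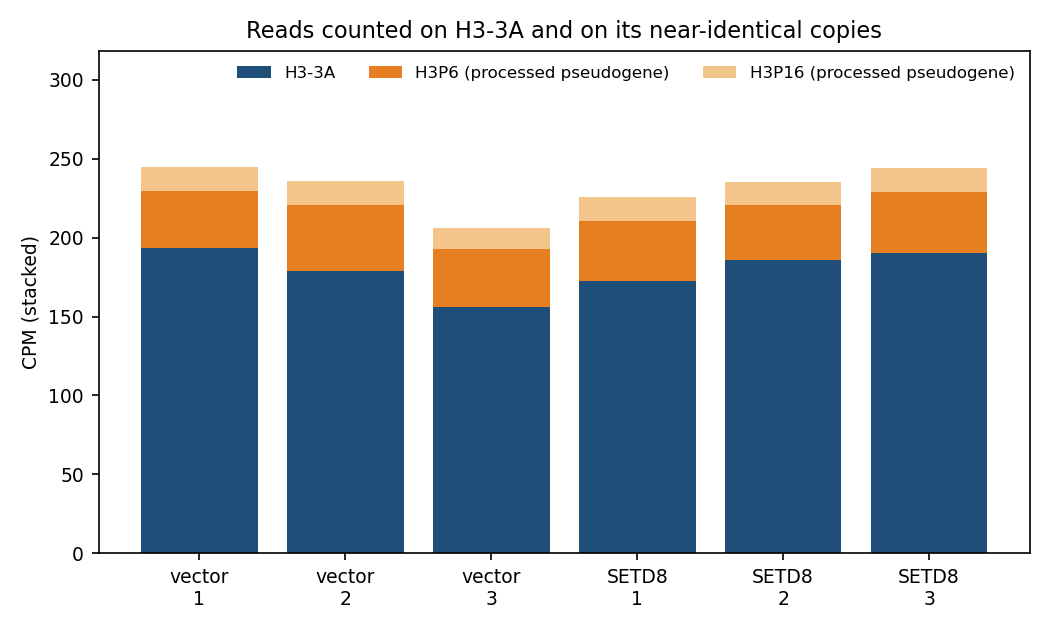
Stacked CPM of H3-3A and of its pseudogenes H3P6 and H3P16 in each of the 6 libraries (vertical axis from 0). H3P6 stays between 34.8 and 41.9 CPM while H3-3A runs from 156 to 193 CPM.

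Ranked by reads per length, the order of the members depended on the length used. Over all annotated exons merged, CPM per kilobase in the vector libraries was 154 ± 21.3 for H2AX, 115 ± 4.82 for H3-3B, 95.7 ± 13.1 for H2AZ1, 56.0 ± 5.95 for H3-3A, 29.9 ± 3.17 for H1-10, 20.2 ± 0.84 for H2AZ2, 12.3 ± 1.05 for MACROH2A1 and 11.0 ± 1.11 for MACROH2A2 (SD, n = 3). In that order the last neighbours, MACROH2A1 and MACROH2A2, did not differ beyond their spread. In the SETD8 libraries H2AZ1 and H3-3B, at 116 ± 9.73 and 102 ± 5.97 CPM per kilobase, had overlapping ranges. Within SETD8 replicates 1, 2 and 3 H2AZ1 was the higher (113, 108 and 126, against 95.8, 101 and 108). The merged exons of MACROH2A1 (17730 bases) and H2AZ2 (4749 bases) are far longer than their representative transcripts (2789 and 752 bases). Per kilobase of longest protein-coding transcript, H3-3B (261 ± 10.9) and H2AZ1 (225 ± 30.7) led in the vector libraries and MACROH2A2 was again last. The same held per kilobase of representative transcript, a length chosen after seeing the data. H2AZ2 stood at 25.3 ± 1.05 by its longest transcript (3804 bases) and at 128 ± 5.33 by its representative one. MACROH2A1, with 2789 bases in both, stood at 78.0 ± 6.68. By CPM alone the 8 genes lay between the 52.2 and 98.8 percentile of all tested genes.

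Vector replicate 3 was the lowest vector library for 8 of the 8 members, where it was the lowest for 37.5% of all tested genes. With scaling by library totals these were 7 of 8 and 31.7%, the exception having its lowest level in vector replicate 1. The median coefficient of variation of the members was 10.3% in vector and 4.99% in SETD8 libraries. Vector replicate 3 also stood farthest from the SETD8 libraries on the first principal component (39.3), and its part in the results above is given by the values without it: H1-10 then had a log2 fold change of 0.20, H2AZ1 0.17, H2AX -0.22 and H3-3B -0.20.

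Among genes that handle these histones, 2 passed the test and both were lower in SETD8. The lists held 59 tested genes in all, of which 3.39% were called, against 7.83% of all tested genes, and their median log2 fold change was -0.10. Of 14 genes of H2A.Z exchange, which build the SRCAP, p400 and INO80 complexes or bind H2A.Z, 1 fell and 0 rose, with a median of 0.07. It was EP400, the p400 ATPase, at 98.1, 99.6 and 111 CPM in vector replicates 1, 2 and 3 and 84.7, 79.3 and 84.5 CPM in SETD8 replicates 1, 2 and 3. The groups of EP400 did not overlap (log2 fold change -0.31, SE 0.086, edgeR adjusted p = 0.0452). Its call was lost with length correction (edgeR adjusted p = 0.538), with library totals (0.0712) and without any library other than vector replicate 1. VPS72, which encodes an H2A.Z-binding subunit, had a log2 fold change of 0.35 (edgeR adjusted p = 0.0530). SRCAP, another ATPase gene, stood at -0.49 (edgeR adjusted p = 0.0781) and the helicase subunit gene RUVBL1 at 0.31 (0.118). Of these 14 genes 7 had an unadjusted p under 0.05 (26.0% of all tested genes). DESeq2 called 3 (12.7% of all genes with an adjusted p), limma-voom 1 (7.69% of all tested genes) and edgeR without vector replicate 1 called 6 (23.8%). The counts of the other lists below stand against the same shares.

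Of 11 genes of H3.3 deposition 0 passed, with 2 at an unadjusted p under 0.05, 1 called by DESeq2, 0 by limma-voom and 2 without vector replicate 1, and a median log2 fold change of -0.06. The remodeller genes CHD1 (-0.40, edgeR adjusted p = 0.0626) and CHD2 (-0.39, 0.0863) came closest, followed by the chaperone gene DAXX (0.18, 0.235) and the HIRA complex subunit gene CABIN1 (-0.16, 0.240). Of 6 partners of macroH2A 0 passed in edgeR (also without vector replicate 1), DESeq2 or limma-voom, 0 had an unadjusted p under 0.05 and the median was -0.13, with the remodeller gene HELLS at -0.22 (edgeR adjusted p = 0.248). Of 11 genes that place or remove the phosphate of H2AX or act downstream of it, 0 passed, with a median of -0.17. The unadjusted p was under 0.05 for 4 of them, and DESeq2 called 1, limma-voom 0 and edgeR without vector replicate 1 called 4. BAZ1B, a kinase of H2AX, had a log2 fold change of -0.38 (edgeR adjusted p = 0.0535), the adaptor gene MDC1 -0.28 (0.0830) and the kinase genes ATM and PRKDC -0.66 (0.0832) and -0.25 (0.0940).

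Of 8 tested genes of replication-coupled deposition 1 fell and 0 rose, with a median of -0.08, and IPO4 was not tested. The unadjusted p was under 0.05 for 2 of the 8, and DESeq2 called 1, limma-voom 1 and edgeR without vector replicate 1 called 2. It was MCM2, a helicase subunit that also binds histones, at 214, 251 and 215 CPM in vector replicates 1, 2 and 3 and 171, 166 and 187 CPM in SETD8 replicates 1, 2 and 3. The groups of MCM2 did not overlap (log2 fold change -0.38, SE 0.091, edgeR adjusted p = 0.0280), though its call was lost without vector replicate 2 or any single SETD8 library. Of 9 genes that process replication-dependent histone messengers 0 passed (3 at an unadjusted p under 0.05, 1 by DESeq2, 0 by limma-voom and 2 without vector replicate 1, median -0.10), and LSM10, a subunit of the U7 particle, had a log2 fold change of 0.46 (edgeR adjusted p = 0.0680). SLBP, whose protein binds the stem-loop, stood at 126 ± 4.25 and 133 ± 1.14 CPM in the vector and SETD8 libraries (SD, n = 3 each, edgeR adjusted p = 0.526), and was named after its values were seen.

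**Figure D5:**
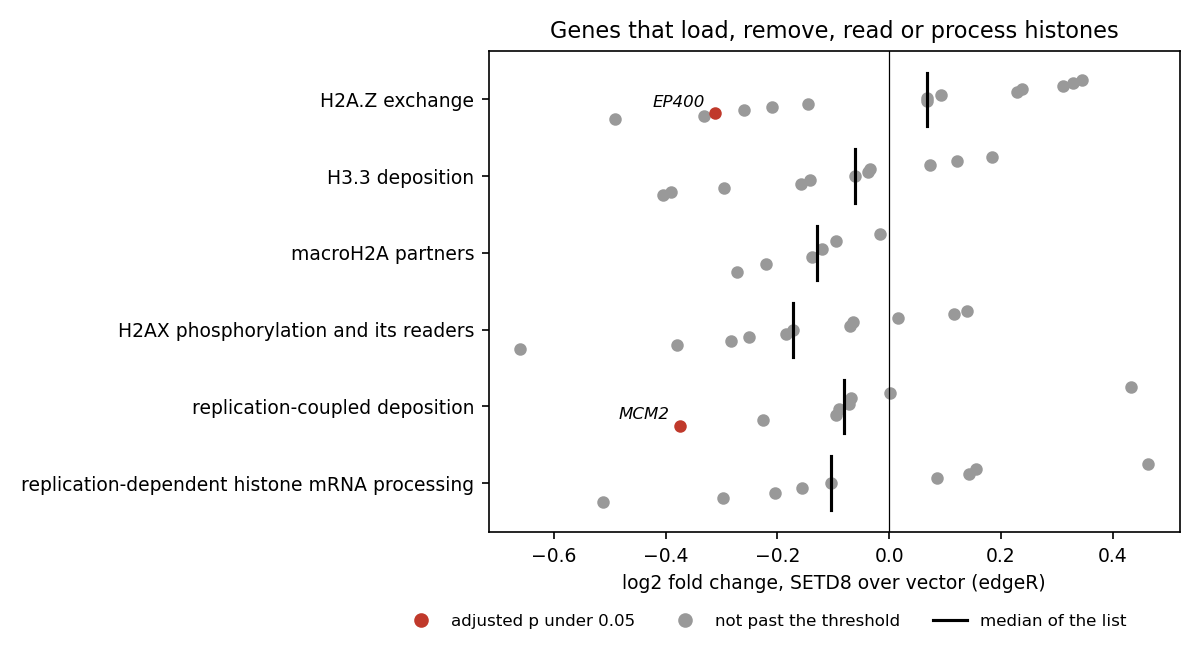
Log2 fold change, SETD8 over vector (horizontal axis), of each tested gene in 6 lists of histone-handling genes, with a bar at each list's median. The only red points, those past the threshold, are EP400 at -0.31 and MCM2 at -0.38.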

How the data were processed

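The authors deposited whole-number, unnormalised read counts per Ensembl gene for 58735 genes in 6 libraries. According to the labels, TRIzol RNA was poly(A)-selected and made into libraries with the TruSeq Stranded mRNA kit. Of tools and builds, the submitters' processing notes list featureCounts, HTSeq, HISAT2 and STAR, with hg38 and GRCh38. No source used here gives their roles, the annotation, the strand setting or the treatment of reads with several matches, so values of overlapping and near-identical genes are uncertain. Columns named NC were taken as vector, the only group other than SETD8.

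All IDs of the members and lists were looked up in GENCODE 29 (GRCh38). After filterByExpr (14370 genes kept) and TMM scaling, the groups were compared with the quasi-likelihood test of edgeR 4.0.16 (robust, no covariates, R 4.3.3), with Benjamini-Hochberg adjusted p-values over all tested genes and a threshold of 0.05. The SE is the log2 fold change divided by the square root of F. The 95% intervals use 4 degrees of freedom, fewer than the test itself. Alternatives were other scalings, no filter and a stricter one (1 CPM), DESeq2 1.42.0, voom of limma 3.58.1, a replicate block, length and GC corrections (lowess, span 0.3), copies summed with the members they are named for, and leaving out each library. The length correction used all annotated exons of a gene merged. Paralog ratios were compared by exact permutation tests.

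Named genes were the members, KMT5A, up to 4 genes of each list by adjusted p, copies with a count, and the 3 genes closest in profile to the member with the smallest p. Members and lists were chosen with earlier results of these data known. Representative transcripts are from GENCODE 29, aligned with Biopython 1.88, and promoters are from RefSeq.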

Additional observations from a re-analysis of the deposited data

How the results depend on the processing

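With the other settings, 115 of 128 log2 fold changes of members (8 genes under 16 alternatives) kept their direction and their side of the threshold, 4 passed the threshold and 9 changed sign. The number of members called was 1 with no low-count filter and 1 with length correction, and 0 to 2 when single libraries were left out. The number of all genes called was 2000 with no low-count filter and 11 to 3509 when single libraries were left out. The cause was not tested. MACROH2A1 changed sign with library totals (0.017), with length correction (0.17) and over the left-out libraries (-0.093 to 0.024). MACROH2A2 did so with length correction (-0.13) and over the left-out libraries (-0.048 to 0.10), and H3-3A likewise (-0.0068, and -0.022 to 0.12). In these genes neither sign passed the test. With a replicate block 0 members and 1177 genes were called, and EP400 was not (adjusted p = 0.0598). Same-numbered libraries deviated together with correlations of 0.02, 0.0078 and -0.06, so the numbers were not taken as pairs. The log2 ratio difference stayed negative for H2AZ2 to H2AZ1 (-0.38 to -0.25) and for H3-3B to H3-3A (-0.32 to -0.17) when single libraries were left out, and with copies summed (-0.33 and -0.22). As differences of length-corrected log2 fold changes, added after seeing the data, these were -0.20 and -0.12, and that of MACROH2A2 to MACROH2A1 changed sign (-0.30). With GC correction they were -0.33, -0.21 and 0.06. The length correction rests on merged exons, which for MACROH2A1 and H2AZ2 are far longer than their representative transcripts. For H2AZ2, however, the longest protein-coding transcript has 3804 bases, nearer the 4749 of the merged exons. For MACROH2A1 it has 2789 bases, as the representative transcript does. The place in the order of levels changed for 6 of 8 members per longest protein-coding transcript and for 6 per representative transcript, because the lengths differ.

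Counting error bears most on MACROH2A2, with 337 to 475 reads per library, and least on H3-3B, with 11091 to 14803.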
